A study of Mus musculus with 6 samples.

Results

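The transcription of 9 imprinted genes was described in cultured mouse muscle stem cells (MuSCs): *Igf2*, *Igf2r*, *Mest*, *Peg3*, *Peg10*, *Grb10*, *Plagl1*, *Ndn* and *Sgce*. The genes were chosen by name, from imprinted genes that muscle precursors are known to use, and were found in the symbol column of the deposited table. Of 10 genes named, 9 were found among 14546 genes. *Dlk1* was not analysed here. The values came from PRO-seq, a nuclear run-on assay that maps RNA polymerase II while it is engaged in transcription, in 6 libraries of proliferating cells. Both groups of 3 libraries carried Pax7CreERT, a tamoxifen-inducible Cre recombinase under the control of *Pax7*, the transcription factor that marks MuSCs. In the control group (Ctrl), the genotype label was Pax7CreERT/Suv4-20h1WT. In the mutant group (*Kmt5b* sKO), it was Pax7CreERT/Suv4-20h1KO. *Kmt5b*, also called Suv4-20h1, encodes a histone methyltransferase that methylates a lysine of histone H4. Per the methods of the study, adult mice on a C57BL/6 background received tamoxifen, and MuSCs were purified with magnetic beads and cultured. Recombination therefore concerned only cells in which *Pax7* had been active, and the share of recombined cells was not measured here.

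An imprinted gene is transcribed mainly from the copy inherited from one parent, because the copies carry different DNA methylation at a control region since the germ line. Paternally expressed genes of this group include *Igf2*, *Mest*, *Peg3*, *Peg10*, *Plagl1*, *Ndn* and *Sgce*, whereas *Igf2r* and, outside the nervous system, *Grb10* are mainly maternally expressed. Many of them act on growth, and in muscle precursors the growth factor *Igf2* is induced as cells leave the cell cycle and differentiate. Reads from an inbred background do not tell the maternal from the paternal copy, so every value below is the sum over both copies and the imprint itself was not measured.

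Each gene had a value for the TSS region, the first 400 nt after the transcription start site, and one for the gene body, the remainder of the gene. TSS values are given as RPM, reads scaled to a common total, and gene body values in TPM, which is also scaled by length. The deposited columns are named TPM for both, and for TSS regions of equal length both units compare libraries in the same way. The pausing index is the TSS value divided by the gene body value. Both regions were scaled separately in each library, so the index is not a ratio of read densities. A fold change is the difference between the means of log2(value + 0.5) in *Kmt5b* sKO and Ctrl, and p-values are from limma, adjusted over 12451 genes tested. A gene was called changed at an adjusted p under 0.1. The libraries held 926904 to 3246052 TSS reads and 7425424 to 16249133 gene body reads. Nothing in the labels ties a replicate to its own animal, so p-values refer to the spread between these libraries. Because values are scaled to a fixed total, a change shared by all genes cannot be seen, and because cells were assayed in bulk, fewer cells of a type cannot be told apart from less RNA per cell.

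The targeted gene was not lower in the libraries labelled *Kmt5b* sKO. TSS values of *Kmt5b* were 93.7, 87.3 and 101.5 RPM in Ctrl replicates 1, 2 and 3 and 120.0, 107.0 and 113.2 RPM in *Kmt5b* sKO replicates 1, 2 and 3, and gene body values ranged from 30.6 to 38.5 TPM and from 35.0 to 42.6 TPM. These values cover the gene from end to end and not the deleted segment alone, so they do not check the genotype, which rests on the labels. Of 12 myoblast markers, 11 were found, and their summed gene body value was 2096 to 2829 TPM in Ctrl, against 2600 to 3368 TPM in *Kmt5b* sKO. Markers of other cells summed to 83.3 to 158.4 TPM against 100.8 to 134.8 TPM for fibroblasts (9 of 12 genes found), 15.9 to 17.8 against 14.1 to 24.4 TPM for endothelial cells (6 of 9), 221.2 to 447.2 against 336.7 to 355.9 TPM for immune cells (5 of 10), 74.0 to 183.2 against 116.0 to 137.2 TPM for mural cells (6 of 7) and 18.6 to 22.8 against 25.4 to 34.8 TPM for Schwann cells (7 of 7). The immune sum was mostly *Cd68*, a lysosomal gene, and *Ptprc* and *Adgre1* were not analysed here. Some of these marker lists lay higher in *Kmt5b* sKO gene by gene, beside a median log2 fold change over all genes tested of 0.08 (TSS) and 0.02 (gene body). For mural cells the medians were 1.03 and 0.59 over 4 genes tested, of which 3 had gene body values higher in *Kmt5b* sKO without overlap (12% of all genes). For fibroblasts they were 0.51 and 0.44 over 8 genes, with 7 above 0 in the gene body (53.8% of all genes) and 2 without overlap. No gene of either list was called by limma. Of 5 Schwann cell markers tested, 1 was called higher in the gene body (1.61% of all genes), *Sox10* (limma adjusted p = 0.0754). A list of 29 differentiation genes summed to 5949, 7609 and 4148 TPM in Ctrl replicates 1, 2 and 3 and to 9343, 8279 and 11956 TPM in *Kmt5b* sKO replicates 1, 2 and 3. A list of 20 proliferation genes summed to 879.4 to 1116 TPM in Ctrl, against 532.7 to 600.8 TPM in *Kmt5b* sKO. The part of these differences in the results below was not tested.

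The start sites were set beside RefSeq promoters, windows from 250 bases before to 50 bases after a start on GRCm38.p6. Windows were found for 7 of 9 genes. *Peg10* and *Sgce* had none. The listed starts of *Igf2* and *Mest* were RefSeq starts, and those of *Peg3*, *Grb10*, *Igf2r* and *Plagl1* lay 2, 19, 42 and 44 nt from one. For *Ndn*, the listed start lay 1708 nt upstream of the RefSeq start. The windows were searched for the hexamer TGCCGC, or GCGGCA on the other strand, which the imprint-protecting factor ZFP57 recognises when it is methylated. Of 32851 RefSeq windows of this length, 11.6% held it. The *Mest* window at chr6:30737800-30738099 (plus strand) held 2, and those of *Grb10* at chr11:12037371-12037670 (minus strand) and *Plagl1* held 1 each. In the windows at the listed starts of *Igf2* at chr7:142657447-142657746 (minus strand), *Igf2r* at chr17:12769657-12769956 (minus strand) and *Peg3*, these letters were not found, and neither were they in the *Ndn* window, which lies at its RefSeq start. *Igf2* had 3 more windows, 1308, 3775 and 9320 nt upstream of its listed start, of which the one at 3775 nt held 1 hexamer. The windows of the genes whose values are given in most detail below are printed with the hexamer in capitals.
*Igf2*: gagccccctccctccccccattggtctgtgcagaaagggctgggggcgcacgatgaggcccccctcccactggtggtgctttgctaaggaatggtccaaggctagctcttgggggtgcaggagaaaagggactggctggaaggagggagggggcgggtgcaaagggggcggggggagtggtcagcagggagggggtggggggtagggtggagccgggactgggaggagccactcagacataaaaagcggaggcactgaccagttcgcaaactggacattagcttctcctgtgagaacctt
*Mest*: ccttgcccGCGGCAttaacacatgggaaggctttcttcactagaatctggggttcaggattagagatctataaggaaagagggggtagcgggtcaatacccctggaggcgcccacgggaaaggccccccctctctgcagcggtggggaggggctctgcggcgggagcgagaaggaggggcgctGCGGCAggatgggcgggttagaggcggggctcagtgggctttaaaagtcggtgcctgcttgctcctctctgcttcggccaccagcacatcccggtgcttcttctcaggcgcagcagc
*Grb10*: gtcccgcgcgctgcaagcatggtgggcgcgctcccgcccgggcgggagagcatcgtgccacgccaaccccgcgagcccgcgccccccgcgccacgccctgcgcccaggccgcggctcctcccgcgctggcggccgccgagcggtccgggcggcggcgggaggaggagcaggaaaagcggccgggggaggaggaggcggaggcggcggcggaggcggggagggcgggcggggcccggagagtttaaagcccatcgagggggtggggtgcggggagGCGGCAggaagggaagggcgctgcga
*Igf2r*: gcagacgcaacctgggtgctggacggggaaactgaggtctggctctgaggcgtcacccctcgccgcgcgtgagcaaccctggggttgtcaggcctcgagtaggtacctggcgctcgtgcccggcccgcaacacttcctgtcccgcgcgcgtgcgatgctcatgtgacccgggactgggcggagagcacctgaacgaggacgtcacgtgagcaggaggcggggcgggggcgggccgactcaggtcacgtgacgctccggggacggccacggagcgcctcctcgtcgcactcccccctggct

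These windows differed in CpG dinucleotides, the sites of DNA methylation. The *Grb10* window held 45, more than 98.1% of all windows, and the *Igf2r* window held 34. *Plagl1* had 26, *Mest* 17, *Peg3* 13 and *Ndn* 11. The *Igf2* window at the listed start held 7, which is the median of all windows, and those 1308, 3775 and 9320 nt upstream held 24, 14 and 2. A second sequence, GCCATNTT with its reverse complement AANATGGC, is bound by YY1, a zinc finger factor known from the *Peg3* control region. It stood in 6.05% of all windows and in no window of these genes, and windows say nothing about sites elsewhere in a gene.

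A pair of the genes carry a microRNA in an intron, on the same strand, so that polymerase crossing the gene body also crosses the microRNA. Their mature sequences from RefSeq are printed with the seed, bases 2 to 8, in capitals. miR-483 lies in *Igf2* (3p arm at chr7:142654932-142654952, 5p arm at chr7:142654968-142654989, minus strand) and miR-335 in *Mest* (5p arm at chr6:30741314-30741336, 3p arm at chr6:30741354-30741375, plus strand).
miR-483-3p: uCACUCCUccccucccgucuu
miR-483-5p: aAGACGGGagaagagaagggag
miR-335-5p: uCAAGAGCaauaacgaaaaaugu
miR-335-3p: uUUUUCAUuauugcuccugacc

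No seed was shared among the 4 arms, and mature microRNAs were not measured.

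The imprinted genes ranked from among the most to among the least transcribed genes tested. By the mean gene body value over 6 libraries, the order was *Igf2* (288.2 TPM), *Peg3* (152.1 TPM), *Mest* (109.1 TPM), *Peg10* (63.5 TPM), *Grb10* (43.7 TPM), *Igf2r* (25.5 TPM), *Ndn* (6.75 TPM), *Sgce* (5.91 TPM) and *Plagl1* (5.42 TPM). The range over libraries overlapped between all neighbours in this order except *Igf2r* and *Ndn*. *Igf2* lay above 99.1% of the genes tested, *Peg3* above 97.5% and *Mest* above 96.0%, whereas *Sgce* and *Plagl1* lay above 21.3% and 19.6%. The ratio of the highest to the lowest library was 12.95 for *Mest*, 5.70 for *Igf2* and 4.17 for *Peg10*, against 1.68 for *Sgce*, 1.79 for *Plagl1* and 2.05 for *Igf2r*.

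**Figure D1:**
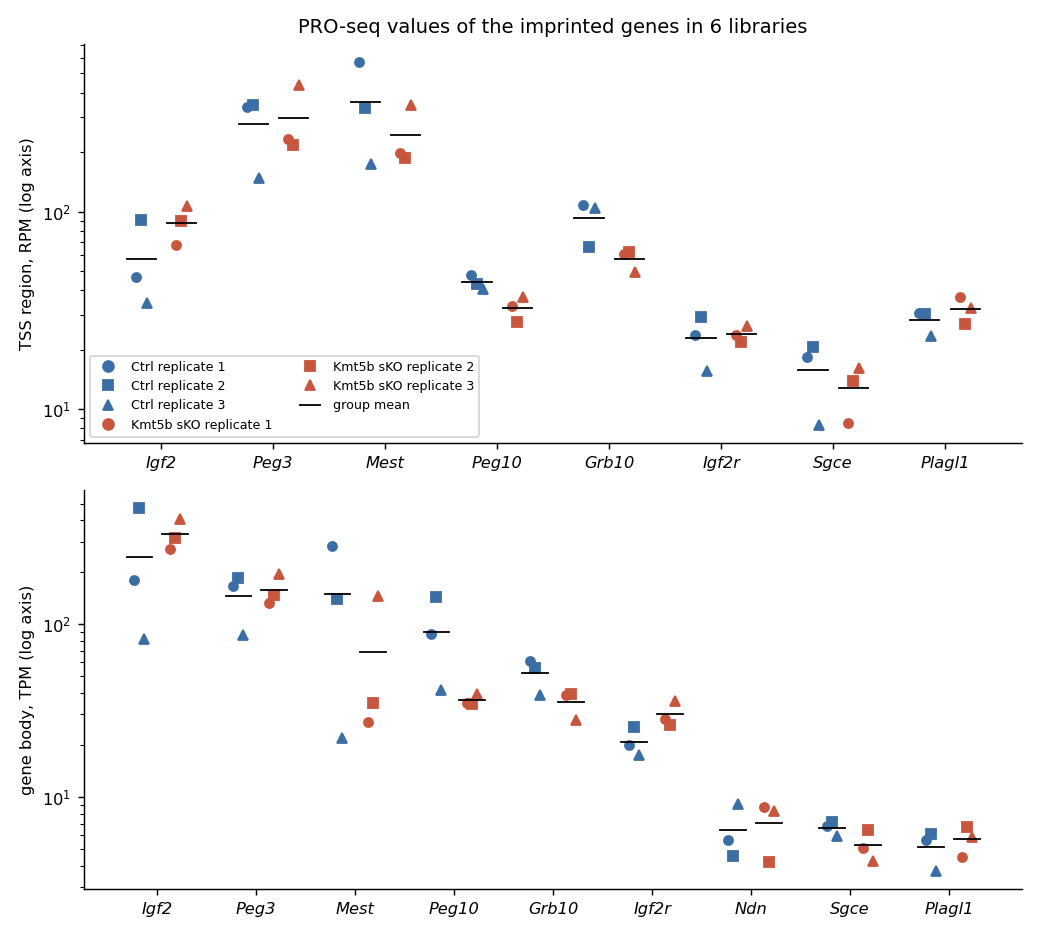
TSS values (RPM, upper panel, 8 genes) and gene body values (TPM, lower panel, 9 genes) on log axes, with 1 point per library, blue for Ctrl, red for *Kmt5b* sKO, and a black line at each group mean. *Mest* ran from 22.02 to 285.2 TPM in the gene body within Ctrl alone, *Peg10* was lower in all *Kmt5b* sKO libraries, and *Ndn*, with no TSS reads, is absent from the upper panel.

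None of the 8 genes tested was called changed in the TSS region or the gene body (limma, adjusted p under 0.1). Of all genes tested, the background, 1.66% were called in the TSS region (0.932% higher, 0.731% lower) and 2.99% were called for the gene body (1.61% higher, 1.38% lower). On recovered reads, edgeR and DESeq2 called 0 of 8 in the TSS region (background 2.24% and 2.37%), and 1 and 3 of 8 for the gene body (background 6.01% and 10.4%). At an unadjusted p under 0.05, 2 of 8 genes passed in the TSS region (*Igf2* and *Grb10*, background 11%) and 3 of 8 in the gene body (*Igf2r*, *Peg10* and *Grb10*, background 15.9%). In each region 4 genes had a fitted change above 0 (background 58.2% for the TSS region, 53.8% for the gene body) and 4 below, with a median log2 fold change of -0.07 for TSS values and -0.09 for gene bodies, beside medians of 0.08 and 0.02 over all genes tested. Groups did not overlap for 2 of 8 genes in the TSS region, *Peg10* and *Grb10*, both lower in *Kmt5b* sKO (background 5.33% lower and 15.6% in either direction). They did not overlap for 2 of 8 in the gene body, *Igf2r* higher and *Peg10* lower (background 12% higher, 9.34% lower and 21.4% in either direction).

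**Figure D2:**
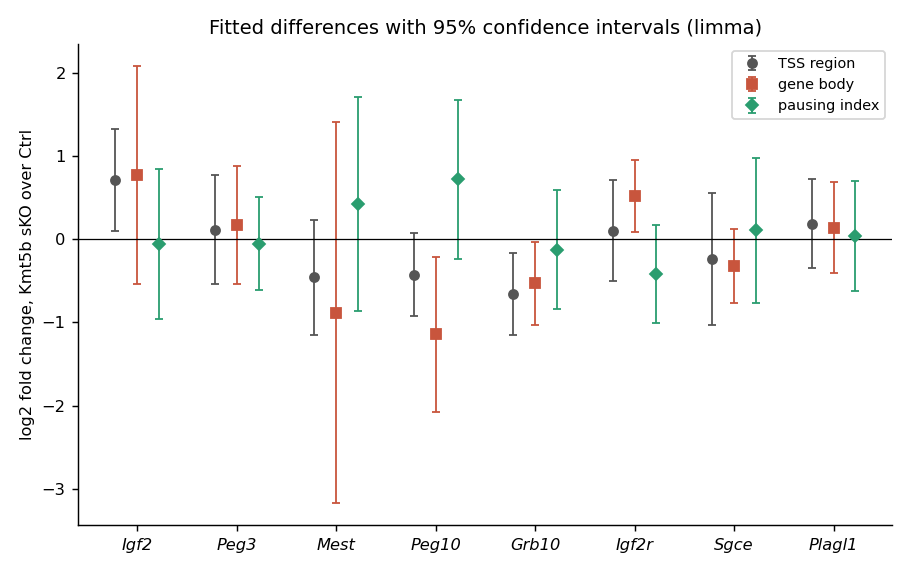
Log2 fold change of *Kmt5b* sKO over Ctrl for 8 imprinted genes in the TSS region (circles), gene body (squares) and pausing index (diamonds), with 95% confidence intervals from limma on 3 against 3 libraries. No gene passed the adjusted threshold, and the interval of *Mest* in the gene body, -3.17 to 1.41, is the widest.

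*Igf2* encodes insulin-like growth factor 2, the growth factor made by differentiating muscle cells. It lies at chr7:142650766-142657496 on the minus strand (isoform Igf2-201 with 4 exons, GRCm38). TSS values of *Igf2* were 46.7, 90.8 and 34.3 RPM in Ctrl replicates 1, 2 and 3 and 67.5, 89.2 and 106.3 RPM in *Kmt5b* sKO replicates 1, 2 and 3. Ctrl replicate 2 stood with the *Kmt5b* sKO libraries and the other Ctrl replicates lay below all of them, so the groups overlapped. The log2 fold change was 0.71 (SE 0.29, 95% CI 0.09 to 1.32, limma adjusted p = 0.35). Without Ctrl replicate 2, it was 1.10 with a limma adjusted p of 0.0362, which passed the threshold, and without Ctrl replicate 3 it was 0.40 (limma adjusted p = 0.65). In the gene body, *Igf2* measured 181.1, 470.2 and 82.5 TPM in Ctrl, against 271.2, 315.5 and 408.7 TPM in *Kmt5b* sKO. The highest and the lowest of all 6 values were both Ctrl libraries, and the log2 fold change of 0.77 (SE 0.56, 95% CI -0.54 to 2.08, limma adjusted p = 0.588) lay within the spread between replicates. It was 1.42 without Ctrl replicate 2 and 0.16 without Ctrl replicate 3. The Ctrl libraries ranked in the same order, replicate 2, 1, 3, in the summed value of the differentiation genes. The *Kmt5b* sKO libraries did not, with replicate 3, 2, 1 for *Igf2* and replicate 3, 1, 2 for the sum. The part of differentiation in the *Igf2* values was not tested. A further limit is that GENCODE lists a readthrough gene, Gm49394, on the same strand over nearly the whole gene body, and reads of these genes cannot be told apart.

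*Igf2r* encodes the cation-independent mannose 6-phosphate receptor, which takes up IGF2 and delivers it to lysosomes for degradation. It spans chr17:12682406-12769664 on the minus strand with 48 exons. Gene body values of *Igf2r* were 19.9, 25.3 and 17.5 TPM in Ctrl replicates 1, 2 and 3 and 28.1, 26.2 and 35.8 TPM in *Kmt5b* sKO. All *Kmt5b* sKO libraries lay above all Ctrl libraries, although sKO replicate 2 and Ctrl replicate 2 were close. The log2 fold change was 0.52 (SE 0.19, 95% CI 0.08 to 0.95), and the limma adjusted p of 0.237 missed the threshold. DESeq2 on recovered reads gave 0.50 with an adjusted p of 0.0809, past the threshold, where the background by DESeq2 was 10.4%. In the TSS region, the values of 23.7, 29.3 and 15.5 RPM in Ctrl, against 23.6, 21.8 and 26.2 RPM in *Kmt5b* sKO, overlapped, with a log2 fold change of 0.10 (SE 0.29, limma adjusted p = 0.947) that became -0.14 without Ctrl replicate 3. The noncoding RNA *Airn* runs on the opposite strand through 32.2% of the *Igf2r* gene body. *Airn* was not analysed here, and reads were counted by strand.

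*Grb10* encodes an adaptor protein that binds the insulin and IGF1 receptors and restrains their signal. It spans chr11:11930508-12037401 on the minus strand with 17 exons. TSS values of *Grb10* were 108.0, 66.1 and 104.6 RPM in Ctrl replicates 1, 2 and 3 and 61.0, 62.1 and 49.7 RPM in *Kmt5b* sKO. Every *Kmt5b* sKO library lay below every Ctrl library, with Ctrl replicate 2 only just above. The log2 fold change of -0.66 (SE 0.24, 95% CI -1.15 to -0.17) had a limma adjusted p of 0.238. It was -0.89 with an adjusted p of 0.0677 by limma without Ctrl replicate 2, past the threshold. Gene body values of *Grb10* were 61.1, 55.8 and 38.8 TPM in Ctrl, against 39.1, 39.3 and 28.0 TPM in *Kmt5b* sKO. Ctrl replicate 3 fell among the *Kmt5b* sKO libraries, and the log2 fold change was -0.53 (SE 0.22, 95% CI -1.04 to -0.03, limma adjusted p = 0.292). Without Ctrl replicate 3 it was -0.73 with a limma adjusted p of 0.0923, and DESeq2 on recovered reads gave -0.57 with an adjusted p of 0.0742. A call for *Grb10* thus depended on 1 Ctrl library or on the tool.

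*Peg10* is a gene derived from a retrotransposon that is needed in the placenta, and it lies head to head with *Sgce*, which encodes epsilon-sarcoglycan of the dystrophin-associated complex. The listed genes at chr6:4747306-4760514 (*Peg10*, plus strand, 3 exons) and chr6:4674354-4747157 (*Sgce*, minus strand, 10 exons) are 149 nt apart. Gene body values of *Peg10* were 87.4, 143.2 and 41.4 TPM in Ctrl replicates 1, 2 and 3 and 34.8, 34.3 and 39.6 TPM in *Kmt5b* sKO. The *Kmt5b* sKO libraries were close to each other and all below Ctrl, of which replicate 3 was nearest to them. The log2 fold change was -1.14 (SE 0.40, 95% CI -2.07 to -0.21, limma adjusted p = 0.226). Without Ctrl replicate 3, it was -1.62 with a limma adjusted p of 0.0292, and without Ctrl replicate 2 it was -0.73 (limma adjusted p = 0.319). On recovered reads, edgeR gave -1.32 (adjusted p = 0.087, background 6.01%) and DESeq2 gave -1.32 (adjusted p = 0.00325). In the TSS region *Peg10* measured 47.9, 43.1 and 40.5 RPM in Ctrl, against 33.4, 27.7 and 36.8 RPM in *Kmt5b* sKO. These groups did not overlap either, with a log2 fold change of -0.43 (SE 0.24, limma adjusted p = 0.564).

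*Sgce* shares its promoter region with *Peg10* and was transcribed at a lower level. Its gene body values were 6.74, 7.11 and 5.93 TPM in Ctrl replicates 1, 2 and 3 and 5.04, 6.41 and 4.24 TPM in *Kmt5b* sKO, which overlapped (log2 fold change -0.32, SE 0.19, limma adjusted p = 0.483). TSS values of *Sgce* were 18.4, 20.7 and 8.33 RPM in Ctrl, against 8.52, 13.9 and 16.1 RPM in *Kmt5b* sKO, and the log2 fold change of -0.24 turned to 0.020 without sKO replicate 1. Per length, the *Peg10* gene body carried 12.96, 20.1 and 6.98 times the value of *Sgce* in Ctrl, against 6.91, 5.36 and 9.34 times in *Kmt5b* sKO. These ratios overlapped (exact two-sided permutation test, p = 0.2, adjusted p = 0.4 over 8 ratios computed, where 3 against 3 libraries cannot go below 0.1).

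*Mest* encodes a protein of the alpha/beta hydrolase family and is among the most strongly transcribed imprinted genes of mesodermal tissue. It lies at chr6:30738050-30748462 on the plus strand (isoform Mest-211, 12 exons). Gene body values of *Mest* were 285.2, 139.2 and 22.02 TPM in Ctrl replicates 1, 2 and 3 and 27.1, 35.1 and 145.9 TPM in *Kmt5b* sKO. Within each group some libraries were high and some low, so that Ctrl replicate 3 resembled sKO replicates 1 and 2. The log2 fold change of -0.88 (SE 0.98, 95% CI -3.17 to 1.41, limma adjusted p = 0.742) was smaller than its standard error, and it was -0.098 without Ctrl replicate 1 and -1.93 without Ctrl replicate 3. TSS values ranged less: 570.6, 334.4 and 173.5 RPM in Ctrl, against 197.3, 185.6 and 347.3 RPM in *Kmt5b* sKO (log2 fold change -0.46, SE 0.33, limma adjusted p = 0.694). The same libraries were high or low in both regions. The gene body held 230 to 4176 reads per library. The 3′ end overlaps *Copg2*, on the opposite strand, over 9.08% of the gene body.

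**Figure D3:**
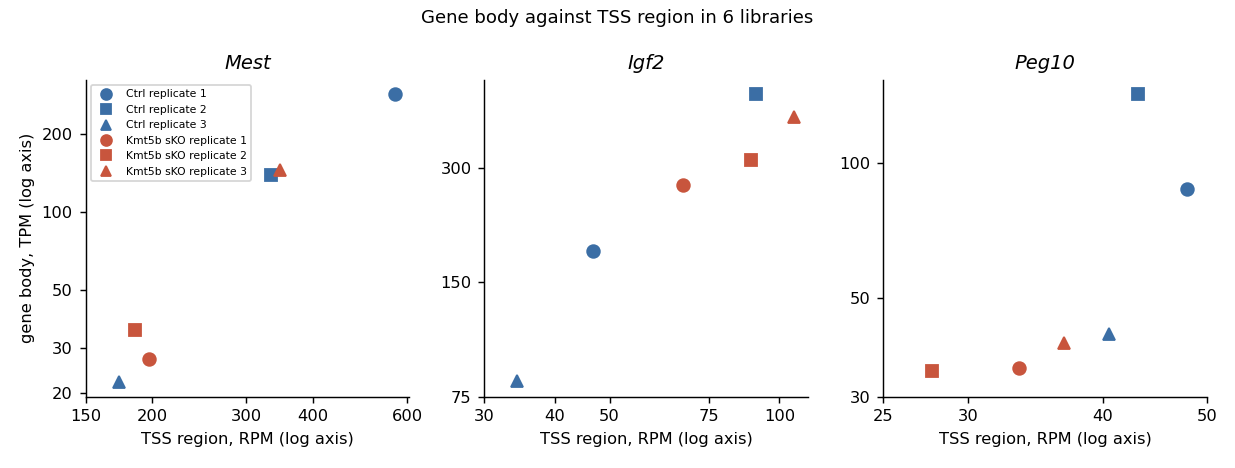
Gene body value (TPM) against TSS value (RPM), both on log axes, for *Mest*, *Igf2* and *Peg10*, with 1 point per library, blue for Ctrl and red for *Kmt5b* sKO. Ctrl replicate 3 and sKO replicates 1 and 2 lie together at the low end for *Mest*, while for *Peg10* all *Kmt5b* sKO libraries lie below and to the left of Ctrl.

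*Peg3* encodes a zinc finger protein found in muscle stem cells and other progenitors. It spans chr7:6703892-6730421 on the minus strand with 9 exons. Gene body values of *Peg3* were 166.0, 186.1 and 86.5 TPM in Ctrl replicates 1, 2 and 3 and 133.4, 146.8 and 194.1 TPM in *Kmt5b* sKO. In the TSS region *Peg3* measured 339.2, 347.6 and 147.9 RPM in Ctrl, against 233.4, 217.3 and 438.3 RPM in *Kmt5b* sKO. Ctrl replicate 3 was the lowest and sKO replicate 3 the highest of all libraries in both regions, and the groups overlapped. The log2 fold change was 0.17 in the gene body (SE 0.30, limma adjusted p = 0.85) and 0.12 in the TSS region (SE 0.31, limma adjusted p = 0.943). Without Ctrl replicate 3, these values were -0.17 and -0.29, and without sKO replicate 3 the TSS value was -0.20, so *Peg3* had no settled direction.

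*Plagl1* and *Ndn* encode a zinc finger factor that restrains the cell cycle and necdin, a protein that promotes exit from the cycle. *Plagl1* lies at chr10:13090788-13131694 on the plus strand (6 exons) and had gene body values of 5.64, 6.09 and 3.73 TPM in Ctrl replicates 1, 2 and 3 and 4.51, 6.67 and 5.85 TPM in *Kmt5b* sKO. Its TSS values were 30.7, 30.5 and 23.5 RPM in Ctrl, against 37.0, 27.1 and 32.7 RPM in *Kmt5b* sKO. Groups overlapped in both regions, with log2 fold changes of 0.14 in the gene body (SE 0.23, limma adjusted p = 0.839) and 0.19 in the TSS region (SE 0.26, limma adjusted p = 0.868), and the gene body value was -0.058 without Ctrl replicate 3. *Ndn*, at chr7:62346569-62350262 on the plus strand with 1 exon, had 0 TSS reads in each of 6 libraries, which allows up to 0.568 to 1.98 RPM (3 reads), counting error only. This region starts 1708 nt upstream of the RefSeq start of *Ndn*, which falls in the listed gene body, so the 0 does not describe that start. The listed gene body of *Ndn* measured 5.61, 4.53 and 9.14 TPM in Ctrl, against 8.74, 4.17 and 8.28 TPM in *Kmt5b* sKO, from 9 to 43 reads. The noncoding gene Gm32061 covers 100% of it on the opposite strand, and reads were counted by strand. *Ndn* was not tested, because only genes whose mean reached 0.5 in the TSS region as well as the gene body were fitted.

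The pausing index ranged widely among the imprinted genes. Because each region was scaled separately, its level does not tell whether reads were denser at the start or in the gene body. *Plagl1* had 5.45, 5.00 and 6.30 in Ctrl replicates 1, 2 and 3 and 8.21, 4.06 and 5.58 in *Kmt5b* sKO, whereas *Igf2* had 0.258, 0.193 and 0.416 in Ctrl, against 0.249, 0.283 and 0.26 in *Kmt5b* sKO. *Mest* spanned a wide range, with 2.00, 2.40 and 7.88 in Ctrl, against 7.27, 5.29 and 2.38 in *Kmt5b* sKO. Its index was high in the 3 libraries in which its gene body was low and TSS values were at the low end too. For *Igf2r*, 1.19, 1.16 and 0.888 in Ctrl lay above 0.84, 0.833 and 0.732 in *Kmt5b* sKO without overlap (log2 fold change -0.42, SE 0.26, limma adjusted p = 0.9997). *Igf2r* was the only one of 8 genes without overlap in this measure (background 3.09% lower and 9.02% in either direction). In recovered reads its groups overlapped. TSS over gene body reads were 51 over 2497 in Ctrl replicate 2, a lower ratio than 72 over 2711 in *Kmt5b* sKO replicate 1. The separation of *Igf2r* thus depended on the separate scaling of both regions. *Peg10* measured 0.549, 0.301 and 0.979 in Ctrl, against 0.96, 0.808 and 0.929 in *Kmt5b* sKO (log2 fold change 0.72, SE 0.42, limma adjusted p = 0.9997). Of the other genes, *Grb10* ranged from 1.18 to 2.70, *Peg3* from 1.48 to 2.26 and *Sgce* from 1.40 to 3.80. No gene at all was called by limma for the pausing index (background 0%), and 0 of 8 imprinted genes passed an unadjusted p under 0.05, against 452 of 11698 genes (3.86%).

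Part of the imprinted genes varied more among Ctrl libraries than most genes did. The SD of log2(gene body value + 0.5) over 3 Ctrl libraries was 1.89 for *Mest*, 1.25 for *Igf2* and 0.89 for *Peg10*, higher than in 99.9%, 99.3% and 97.3% of the genes tested. The median gene had 0.24 and the 90th percentile was 0.60, which 3 of 8 imprinted genes passed. *Peg3* had 0.59, and *Sgce* had 0.12, below the median. In the gene body, Ctrl replicate 3 was the lowest Ctrl library for 8 of 8 genes, beside 51.9% of all genes tested. In the TSS region this held for 7 of 8 (background 44.2%), *Grb10* being the exception. Ctrl replicate 3 was also the lowest of all 6 libraries in the gene body for 5 of 8 genes (background 33.6%). This count is a description chosen after the values were seen.

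**Figure D4:**
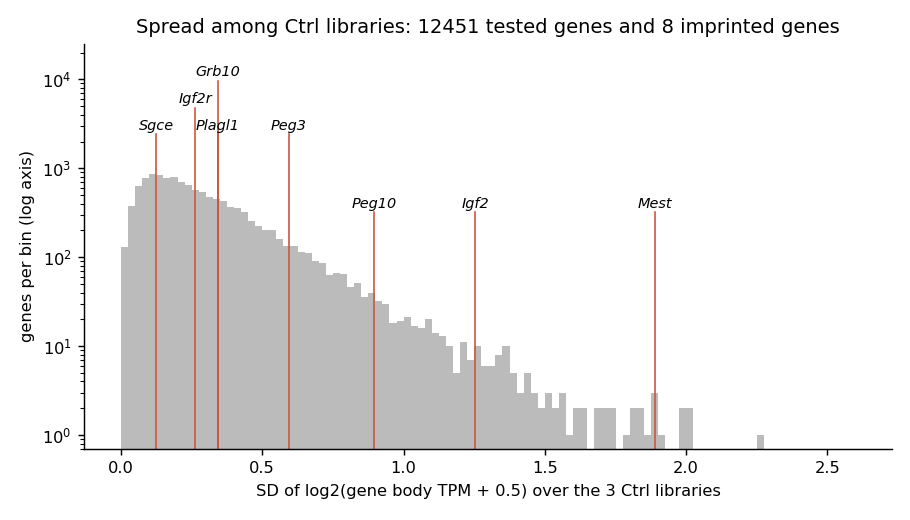
Histogram of the SD of log2(gene body TPM + 0.5) over 3 Ctrl libraries for 12451 genes tested, with a log count axis and red lines at 8 imprinted genes. *Mest* (1.89), *Igf2* (1.25) and *Peg10* (0.89) lie in the right tail, while *Sgce* (0.12) lies below the median of 0.24.

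A list of 58 other imprinted genes showed no calls. Of these, 42 were found and 37 were tested, with 0 called by limma in either region. At an unadjusted p under 0.05, 6 passed for the TSS (background 11%) and 5 for the gene body (background 15.9%), and the median log2 fold changes were 0.21 and 0.07. The most transcribed were *Gnas*, encoding the stimulatory G protein alpha subunit, *Tssc4* and *H13*, encoding signal peptide peptidase. *Gnas* had gene body values of 164.2, 223.2 and 176.3 TPM in Ctrl replicates 1, 2 and 3 and 231.5, 227.9 and 195.5 TPM in *Kmt5b* sKO (log2 fold change 0.22, limma adjusted p = 0.594). *Tssc4* ranged from 119.2 to 233.0 TPM and *H13* from 101.9 to 127.6 TPM over all libraries, with log2 fold changes of 0.32 and 0.04. Tools differed for this list: in the gene body, edgeR called 1 gene (background 6.01%), *Slc38a4*, and DESeq2 called 3 (background 10.4%), *Cd81*, *Qpct* and *Slc38a4*, named after their values were seen.

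The IGF pathway held 2 genes that rose. Of 44 genes listed, 37 were tested, with 2 higher (background 1.61%) and 0 lower in the gene body, 1 higher (background 0.932%) and 0 lower at the TSS, and median log2 fold changes of 0.11 and 0.32. *Igfbp2*, a secreted protein that binds IGFs, had gene body values of 3.72, 3.28 and 3.98 TPM in Ctrl replicates 1, 2 and 3 and 6.82, 11.0 and 12.4 TPM in *Kmt5b* sKO. It rose by 1.31 on the log2 scale in the gene body (SE 0.24, limma adjusted p = 0.0691) and by 1.58 in the TSS region (SE 0.42, limma adjusted p = 0.0853). *Igf2bp2*, an RNA-binding protein named for its binding of the *Igf2* transcript, measured 7.80, 10.2 and 6.51 TPM in Ctrl, against 15.5, 17.0 and 20.2 TPM in *Kmt5b* sKO, a log2 fold change of 1.07 (SE 0.20, limma adjusted p = 0.0694). For both genes every *Kmt5b* sKO library lay above Ctrl in the gene body. In the list this held for 3 of 37 genes (background 12%), and 1 lay lower without overlap (background 9.34%). In the TSS region 7 lay higher without overlap (background 10.2%). At an unadjusted p under 0.05 by limma, 4 passed in the gene body (background 15.9%) and 8 in the TSS region (background 11%). Both gene body calls were lost when any of Ctrl replicate 1 or sKO replicates 1 to 3 was left out, and *Igfbp2* also without Ctrl replicate 2. The TSS call of *Igfbp2* remained only without Ctrl replicate 2. The most transcribed genes of the list, *Igfbp5*, *Eif4ebp1* and *Furin*, had mean gene body values of 155.5, 118.4 and 95.2 TPM in Ctrl and log2 fold changes of -0.29, -0.18 and 0.19 with overlapping groups.

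Among factors that maintain imprints and DNA methylation, 2 genes were called lower in the gene body, and most had a fitted change below 0. Of 30 genes listed, 26 were tested, with 0 higher and 2 lower (background 1.38%) in the gene body, 0 higher and 2 lower (background 0.731%) in the TSS region, and median log2 fold changes of -0.23 and -0.05. In the gene body, 19 had a fitted change below 0 and 7 above (background 53.8% above). Groups did not overlap for 12 genes lower (background 9.34%) and 0 higher (background 12%). At an unadjusted p under 0.05 by limma, 7 passed in the gene body (background 15.9%). *Uhrf1*, which brings DNA methyltransferase 1 to replicating DNA, measured 37.6, 32.8 and 24.3 TPM in the gene body in Ctrl replicates 1, 2 and 3 and 10.5, 13.9 and 16.1 TPM in *Kmt5b* sKO. It fell by 1.20 on the log2 scale (SE 0.22, limma adjusted p = 0.0691), and by 1.29 in the TSS region (SE 0.29, limma adjusted p = 0.0484). *Hells*, a chromatin remodeller needed for DNA methylation, measured 17.1, 17.3 and 18.7 TPM in Ctrl, against 6.32, 9.68 and 8.07 TPM in *Kmt5b* sKO, and fell by 1.11 (SE 0.18, limma adjusted p = 0.0639). *Cbx5*, encoding heterochromatin protein HP1 alpha, fell in the TSS region, by 0.94 (SE 0.26, limma adjusted p = 0.0975). *Uhrf1* and *Hells* are also replication genes, and the proliferation list was lower in *Kmt5b* sKO, with 13 of 20 genes called lower in the gene body, the part of which was not tested. Both gene body calls were lost when Ctrl replicate 1 or any of sKO replicates 1 to 3 was left out, and that of *Uhrf1* also without Ctrl replicate 2. TSS calls were lost for *Uhrf1* without Ctrl replicate 1 or sKO replicate 1, and for *Cbx5* unless Ctrl replicate 3 was the library left out. The most transcribed were *Trim28*, the KRAB co-repressor, with 47.4 to 76.3 TPM in Ctrl, against 53.5 to 58.1 TPM in *Kmt5b* sKO, *Cbx3* and *Cbx5*. No gene of the list was called higher in either region.

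The closest listed genes on each side were described as neighbours. Of 13 neighbours tested, 0 were called by limma in the TSS region (background 1.66%) and 1 in the gene body (background 2.99% in either direction and 1.61% higher). It was *Tspan32*, a tetraspanin gene 347550 nt from *Igf2*. Its TSS values, from 0 to 4 reads, were 0.24, 0 and 0 RPM in Ctrl and 0.98, 0.66 and 1.84 RPM in *Kmt5b* sKO. It thus reached the mean of 0.5 needed for testing only through the *Kmt5b* sKO libraries, so the call cannot be set apart from that filter. Its gene body measured 7.79, 9.89 and 7.08 TPM in Ctrl replicates 1, 2 and 3 and 16.02, 13.9 and 25.3 TPM in *Kmt5b* sKO, a log2 fold change of 1.08 (SE 0.24, limma adjusted p = 0.0982), and the call was lost with any library left out, at adjusted p values of 0.113 to 0.266 by limma. On the other side of *Igf2*, *Mrpl23* had a log2 fold change of 0.06. Next to *Grb10*, *Cobl* was at 17.4, 19.6 and 14.01 TPM in Ctrl, against 23.0, 22.8 and 20.6 TPM in *Kmt5b* sKO without overlap (background 12% higher). Its log2 fold change was 0.38 (SE 0.16, limma adjusted p = 0.295). *Ddc*, 40100 nt beyond the 3′ end of *Grb10* on the same strand, was not tested because TSS values were near 0, with gene body values of 15.9 to 19.8 TPM in Ctrl, against 21.7 to 29.5 TPM in *Kmt5b* sKO. *Mas1*, 71415 nt upstream of *Igf2r*, was not tested either and had 3.0 to 5.04 TPM in Ctrl, against 7.44 to 9.18 TPM in *Kmt5b* sKO. The remaining neighbours tested, *Map3k4*, *Cep41*, *Copg2*, *Zim1*, *Usp29*, *Ppp1r9a*, *Zc2hc1b*, *Snurf*, *Mkrn3* and *Casd1*, had log2 fold changes from -0.39 to 0.50 in the gene body, none of them called. In the TSS region theirs ranged from -0.55 (*Usp29*) to 1.80 (*Snurf*, limma adjusted p = 0.211). *Snurf*, 2341520 nt from *Ndn*, had TSS values of 0.97, 1.15 and 0.19 RPM in Ctrl, against 3.61, 1.98 and 6.44 RPM in *Kmt5b* sKO. These came from 1 to 14 reads per library. *Sf3b5*, beside *Plagl1*, had no TSS reads and was not tested.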

How the data were processed

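PRO-seq data of 3 Ctrl and 3 *Kmt5b* sKO libraries were analysed. Per the labels and methods, the authors used Trimmomatic (0.39) for trimming, STAR (2.6.1d) for alignment to GRCm38 and Picard (2.18.16) to remove duplicates, and counted them by strand for 1 isoform per protein-coding gene. Random placement of reads matching several positions could affect genes with copies. The authors deposited RPM values for TSS regions and TPM values for gene bodies, with no read counts. As values were whole multiples of 1 read (at least 99.97% of TSS values and 98.6% of values for gene bodies under 2000 nt, to within rounding of 0.005), reads were recovered for edgeR and DESeq2. TSS regions were of 1 length (400 nt), so the steps of their values cannot tell TPM from RPM. TSS values are called RPM here and were tested in the same way as gene body values. The authors also filtered on expression, and the filter was repeated here.

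Genes off X and Y with means of at least 0.5 in both regions were tested on log2(value + 0.5) with limma (3.58.1, R 4.3.3, trended eBayes, two-sided, Benjamini-Hochberg over 12451 genes). The pausing index was tested as a log2 ratio over 11698 genes with reads in both regions of all libraries. Genes were called at an adjusted p under 0.1. Alternatives were pseudocounts, filters, chromosomes, normalizations, edgeR (4.0.16), DESeq2 (1.42.0), a replicate block, a stricter threshold and leaving out each library. The fit functions were tested on simulated data. Members, gene lists and rules were chosen with earlier results of these data known. Genes named were all members, called genes of each list (up to 3 per direction), the 3 most transcribed of each list, the nearest listed genes, and the 3 genes whose gene body pattern was most like that of *Igf2*. Intervals for 0 reads cover counting error only. Annotation was GENCODE M21 and RefSeq on GRCm38.p6.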

Additional observations from a re-analysis of the deposited data

How the results depend on the processing

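Of 264 values of single imprinted genes under alternatives that can move a fold change, 249 kept their direction. Counts of imprinted genes called in the TSS region were 0 to 2 with 1 library left out (2 without Ctrl replicate 2, *Igf2* and *Grb10*), and 0 under every other setting. In the gene body they were 0 to 2 with 1 library left out (2 without Ctrl replicate 3, *Grb10* and *Peg10*), 1 with edgeR and 3 with DESeq2 on recovered reads, and 0 otherwise. No setting called any of them for the pausing index. For other imprinted genes, the count was 1 without a trend in limma, 1 with edgeR, 3 with DESeq2 and 0 to 3 with 1 library left out. IGF pathway genes went from 2 to 0 with a replicate block and at an adjusted p under 0.05, and to 0 to 4 with 1 library left out. Imprint maintenance genes went from 2 to 4 with edgeR, 7 with DESeq2, 0 with a replicate block, 0 at an adjusted p under 0.05 and 0 to 5 with 1 library left out. The cause of these shifts was not tested.

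Same-numbered libraries did not deviate together (correlations of deviations from the group means of -0.03, -0.13 and -0.16 in the TSS region and -0.15, -0.17 and -0.33 in the gene body). The values thus gave no sign that the numbers pair the samples, although so few libraries cannot exclude a shared preparation. The replicate block left 0 imprinted genes called in each measure.

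With 1 library left out, log2 fold changes that turned sign ranged, in the TSS region, from -0.14 to 0.30 for *Igf2r* (lowest without Ctrl replicate 3), -0.29 to 0.33 for *Peg3* (below 0 without Ctrl or sKO replicate 3) and -0.63 to 0.020 for *Sgce* (above 0 without sKO replicate 1). For gene bodies they ranged from -0.17 to 0.38 for *Peg3* and -0.058 to 0.28 for *Plagl1* (both below 0 without Ctrl replicate 3). For the pausing index they ranged from -0.31 to 0.24 for *Igf2*, -0.22 to 0.089 for *Peg3*, -0.42 to 0.17 for *Grb10*, -0.22 to 0.29 for *Plagl1* and -0.23 to 0.36 for *Sgce*, and with library medians set equal *Plagl1* was at -0.014. Values that kept their sign but moved most ranged from 0.40 to 1.10 for *Igf2* and -0.90 to -0.045 for *Mest* in the TSS region (*Mest* nearest 0 without Ctrl replicate 1), and from 0.16 to 1.42 for *Igf2*, -1.93 to -0.098 for *Mest* and -1.62 to -0.73 for *Peg10* in the gene body. Depth limits *Ndn* and the TSS region of *Sgce*, with 21 to 76 reads.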

Other observations

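The genes whose gene body pattern was most like that of *Igf2* were *Hrc*, encoding a calcium-binding protein of the sarcoplasmic reticulum, *Slc2a4*, encoding the insulin-responsive glucose transporter, and *Ccl2*, a chemokine gene. Among 244 genes with at least the range of *Igf2* (2.50 on the log2 scale), their mean absolute distance to it over 6 libraries, after centring, was 0.18, 0.23 and 0.27. *Hrc* measured 31.0, 56.4 and 13.6 TPM in Ctrl replicates 1, 2 and 3 and 51.5, 54.4 and 89.7 TPM in *Kmt5b* sKO. As for *Igf2*, Ctrl replicate 3 was lowest and Ctrl replicate 2 stood with the *Kmt5b* sKO libraries. This likeness follows from the choice of *Hrc* by its distance to *Igf2* over the same values. Levels of *Slc2a4* and *Ccl2* were low, at 7 to 37 and 5 to 29 gene body reads per library.

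In the *Peg3* domain, the gene body value of *Peg3* was 1.97, 1.78 and 2.79 times that of the neighbouring imprinted gene *Zim1* in Ctrl replicates 1, 2 and 3 and 3.41, 2.66 and 3.06 times in *Kmt5b* sKO (exact two-sided permutation test, p = 0.2, adjusted p = 0.4 over 8 ratios). *Usp29*, which starts 162 nt from *Peg3* on the other strand, was transcribed at a lower level per length, with *Peg3* at 16.7 to 33.8 times its gene body value in Ctrl, against 20.7 to 24.3 times in *Kmt5b* sKO. *Igf2* over *Igf2r* in the gene body was 9.08, 18.6 and 4.72 in Ctrl, against 9.66, 12.1 and 11.4 in *Kmt5b* sKO (exact two-sided permutation test, p = 0.7). *Cdkn1c*, an imprinted inhibitor of cyclin-dependent kinases chosen here after its values were seen, measured 24.0, 26.6 and 2.12 TPM in Ctrl, against 3.51, 1.98 and 9.08 TPM in *Kmt5b* sKO (limma adjusted p = 0.541), so that Ctrl replicate 3 and sKO replicates 1 and 2 were low, as for *Mest*.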
